A study of Sus scrofa with 6 samples.

Results

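Solute carriers are membrane proteins that move sugars, amino acids, ions, metals, nucleotides and vitamins across cell membranes without using ATP directly. Their transcripts were examined in longissimus muscle, the long muscle of the back, of pigs (Sus scrofa) with much or little intramuscular fat, the fat deposited inside the muscle. The records studied were those whose symbol in the authors' table begins with SLC and a digit, leaving out the mitochondrial carrier family SLC25A and the insulin-responsive glucose carrier SLC2A4. This gave 61 of the 7661 records in the table, under 60 symbols. No record carried the symbol SLC2A4, so that exclusion removed 0 records. The gene itself is in the table under a protein accession that Ensembl names SLC2A4, and it is counted below among carriers with other names, not among the 61. The SLC25A exclusion set aside 21. The high group held 3 libraries, each from a pig with high intramuscular fat, and the low group 3 libraries from pigs with low intramuscular fat. The labels give no breed, sex, age, allele or agent for either group. The design text counts 3 pigs a group, and the p-values below set group differences against the spread between these few samples only.

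Carriers work as uniporters, as cotransporters driven by the sodium or proton gradient, or as exchangers. In muscle fibres they are known for glucose and lactate traffic, for amino acid supply to protein synthesis, for pH and calcium recovery after contraction, and for zinc, copper and magnesium balance. Many family members sit in the endoplasmic reticulum, the Golgi apparatus, lysosomes or mitochondria and not in the cell surface.

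The name does not fix the role in every case. SLC9A3R1 and SLC9A3R2 encode scaffold proteins, which a table of Ensembl names lists as NHERF1 and NHERF2, and SLC4A1AP encodes an adaptor protein. These 3 records are not carriers, which left 58 carrier records from 28 families. The record listed as SLC24A6 is SLC8B1 in the Ensembl names, the sodium-calcium exchanger of the inner mitochondrial membrane. SLC30A9 is known as a zinc carrier of mitochondria as well. The record listed as SLC38A5 is named SLC38A3 there, so which of these glutamine carriers it measures is uncertain. Of the 61 records, 54 had the same name in both sources, 4 had the other names just given and 3 had no entry there.

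Library totals ran between 25371989 and 34813172 reads, and the smallest count of any of the 61 records in a library was 101 reads. A floor of 3 reads equals 0.0862 to 0.118 CPM (reads scaled to a common library total), so every value of the 61 lies well above it. The table keeps records above 10 CPM in at least 3 libraries, and 0 of the 61 met this through the libraries of 1 group alone. Markers of muscle fibres were abundant, with ACTA1, skeletal actin, at 22712 to 27906 CPM in the high libraries and 24058 to 27920 CPM in the low libraries. Of the 8 fibre markers 5 were matched, 2 with a positive and 3 with a negative fold change. The record listed as MYH1 did not overlap, at 33013 to 36050 CPM in the high and 29589 to 32078 CPM in the low libraries. Those listed as TNNT1 and MYH7 were lower in the high group (log2 fold changes -0.39 and -0.21), with overlapping groups. The adipocyte list had 3 of its 8 markers matched (PLIN1, CIDEA and CIDEC), each above all low libraries in every high library, with summed levels of 50.8, 75.4 and 115.5 CPM in high libraries 1 to 3 against 17.1, 15.3 and 17.9 CPM in low libraries 1 to 3. All 3 were kept in the table through the high libraries alone, so for them that filter fixed the separation. All 9 fibroblast marker records had positive fold changes too, their sums ranging over 3059 to 4196 CPM in the high and 1459 to 2612 CPM in the low libraries. Summed smooth muscle markers ran over 542 to 630 CPM in the high and 343 to 540 CPM in the low libraries, a very narrow margin. Of their 8 records, 4 had a positive and 4 a negative fold change. The sums of the endothelial list (4 of 6 markers matched) and the erythrocyte list (2 of 4) overlapped. The macrophage, lymphocyte and Schwann cell lists had 1 matched marker each, of 6, 4 and 5, and its values overlapped. The part of any of these cell types in the results below was not tested. In these bulk samples fewer cells of a type and less RNA per cell cannot be told apart.

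No solute carrier record passed an adjusted p of 0.05 between high and low intramuscular fat. The test was edgeR's quasi-likelihood F-test on the read counts, with Benjamini-Hochberg adjustment over all 7661 records, of which 11 passed (0.144%). Of the 61 records, 29 had a positive log2 fold change, high minus low, where 45.2% of all records did, and 32 a negative one, where 54.8% did. The median was -0.06, against -0.04 over all records. An unadjusted p under 0.05 was reached by 9 of the 61 (14.8%), where 18.7% of all records did. These were 2 records higher in the high group, where 10.3% of all records did, and 7 lower, where 8.41% did. The count of calls depended on the test. DESeq2 called 5 of the 61 where it called 6.76% of all records, edgeR's exact test 3 where it called 4.12%, and limma-voom 0 where it called 0.104%. Their summed level was 2379 ± 98.7 CPM in the high group and 2367 ± 201 CPM in the low group (SD, n = 3 each).

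The precision of the comparison differed between records. The 95% interval of the log2 fold change lay inside -1 to 1 for 46 of the 61 records (75.4%), against 83.7% of all records, so for those 46 a doubling or halving lay outside the interval. SLC24A6 alone had an interval reaching past both bounds. Absolute log2 fold changes of at least 0.5 were found in 12 of the 61 (19.7%), against 14.0% of all records.

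**Figure D1:**
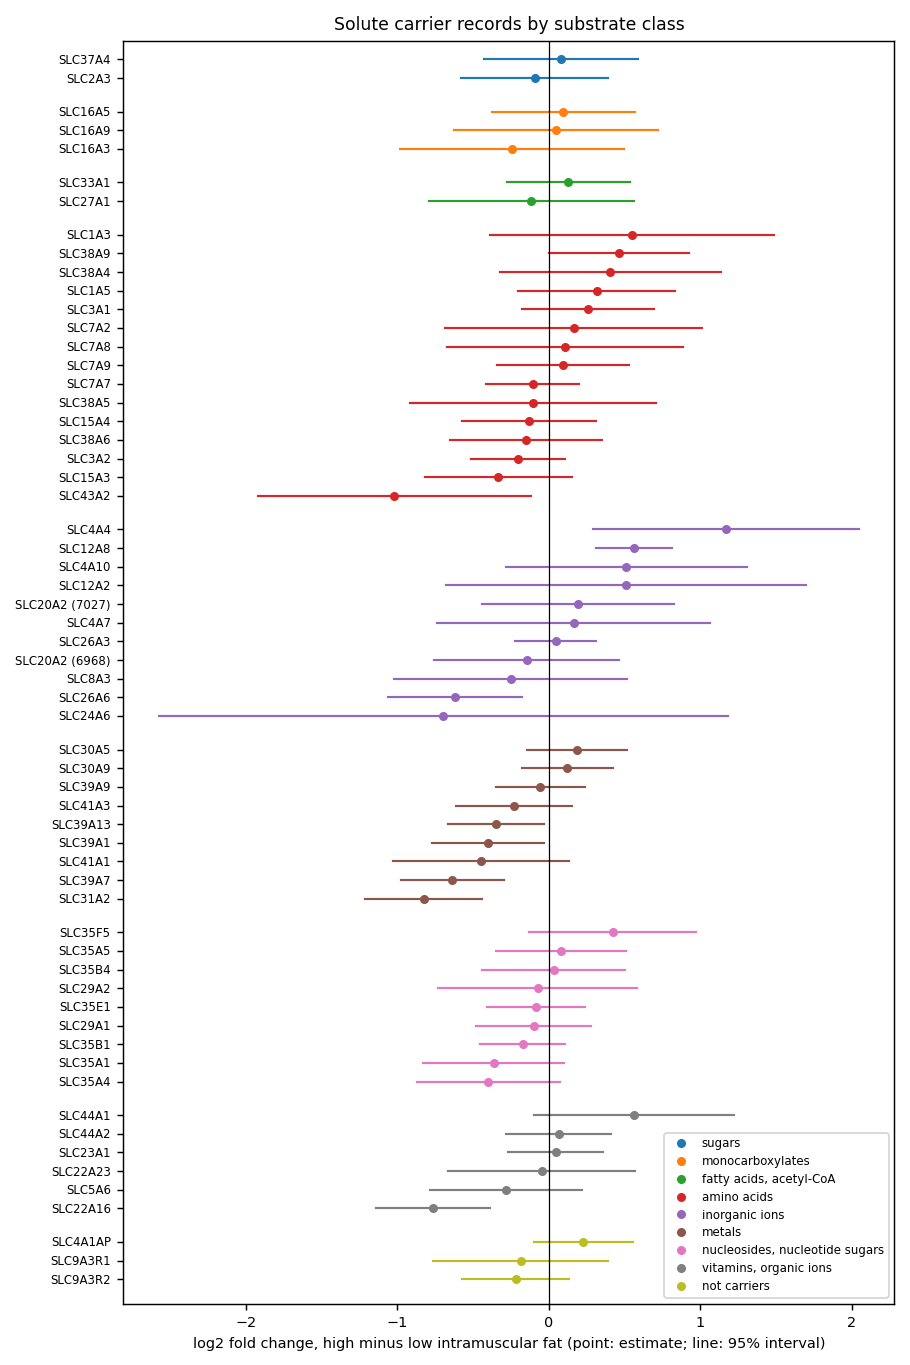
Log2 fold change (high minus low intramuscular fat) of 60 of the 61 records on the x axis, grouped and coloured by substrate class, with points as edgeR estimates and lines as 95% intervals from 3 libraries a group. Estimates ran between -1.02 for SLC43A2 and 1.17 for SLC4A4, and SLC24A6 had the widest interval.

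Carriers of inorganic ions formed the class with the widest range. Of their 12 records, 8 had a positive fold change, with a class median of 0.10 and a range of -0.70 to 1.17, and 3 reached an unadjusted p under 0.05, as 18.7% of all records did. The class median was 0.0043 without high library 3 and -0.059 once the trend with genomic span described further on was removed.

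SLC4A4 encodes the electrogenic sodium bicarbonate cotransporter, which brings bicarbonate into the cell to buffer acid (ENSSSCG00000008943, chromosome 8, 71840474 to 72050171 in the table's coordinates). It was at 178, 149 and 63.8 CPM in high libraries 1 to 3, against 42.3, 67.1 and 66.4 CPM in low libraries 1 to 3. High libraries 1 and 2 stood above every low library, while high library 3 lay inside the low range, so the groups overlapped. The log2 fold change was 1.17 (SE 0.38, 95% interval 0.29 to 2.05), the largest positive value among the 61, with an edgeR adjusted p of 0.182. It was 1.501 without high library 3 and 0.85 without high library 1. SLC4A4 was the 1 record of the 61 on the authors' deposited list of differing genes, and the authors' deposited table gives it a false discovery rate of 0.0179. The deposited rates follow edgeR's exact test as run here, with 316 of all 7661 records under 0.05 in each, so they are not evidence apart from it. High library 3, where SLC4A4 was lowest in its group, had the highest summed adipocyte markers. It also had the lowest summed fibroblast markers of the high libraries, at 3457, 4196 and 3059 CPM in high libraries 1 to 3. The part of either cell type in SLC4A4 was not tested.

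SLC12A8, an atypical member of the cation-chloride cotransporter family, had the smallest p of all 61 records (ENSSSCG00000011860, chromosome 13, 144631187 to 144754074). Its levels were 51.4, 56.0 and 53.6 CPM in the high libraries, against 37.4, 38.4 and 34.5 CPM in the low libraries. Every high library stood above every low library, and the libraries of each group lay close together. The high mean was 53.7 ± 2.32 CPM and the low mean 36.8 ± 1.99 CPM (SD, n = 3 each). The log2 fold change was 0.56 (SE 0.11, 95% interval 0.31 to 0.81, edgeR adjusted p = 0.0940), a 1.48-fold difference, and it stayed between 0.55 and 0.59 with any 1 library left out. A record without a symbol, ENSSSCG00000026935, lies inside SLC12A8 on the same strand over 8793 bases. It had 25.03, 26.7 and 26.5 CPM in the high libraries and 17.1, 13.5 and 14.2 CPM in the low libraries, the same separation of groups. Whether the records share reads was not tested.

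SLC12A2, the sodium-potassium-chloride cotransporter that loads cells with chloride, was at 85.0, 155 and 162 CPM in the high libraries and at 140.5, 123 and 27.6 CPM in the low libraries. Low library 3 stood far below the other 5, and the log2 fold change of 0.51 (SE 0.51) became 0.09 without it. SLC4A7, an electroneutral sodium bicarbonate cotransporter, ranged over 30.8 to 76.9 CPM in the high and 32.1 to 82.1 CPM in the low libraries. SLC4A10, a sodium-dependent bicarbonate transporter best known from neurons, had 13.9, 11.8 and 9.004 CPM in the high libraries against 12.4, 5.20 and 6.97 CPM in the low libraries (log2 fold change 0.51, SE 0.34). All 3 SLC4 carriers had a positive fold change, where 45.2% of all records did. SLC4A4 was the 1 of them with an unadjusted p under 0.05, where 18.7% of all records did.

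SLC26A6, an exchanger of chloride for bicarbonate, oxalate and other anions, ran the other way (ENSSSCG00000011361, chromosome 13, 34582659 to 34594185). Its levels were 23.5, 17.9 and 26.5 CPM in the high libraries and 37.0, 32.1 and 36.4 CPM in the low libraries, without overlap. The log2 fold change was -0.62 (SE 0.19, edgeR adjusted p = 0.174). SLC26A3, the chloride-bicarbonate exchanger known from the intestine, barely differed, at 25.4 to 27.4 CPM in the high and 23.5 to 28.1 CPM in the low libraries. The gene CBLL1 lies inside the SLC26A3 record on the same strand and had 24.3 to 26.1 CPM in the high and 20.7 to 25.3 CPM in the low libraries, close to the level of SLC26A3 in each library. What share of the SLC26A3 reads belongs to CBLL1 was not tested.

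Calcium and phosphate carriers of the plasma membrane showed no separation of the groups. SLC8A3, a sodium-calcium exchanger of the plasma membrane of muscle and brain, was at 57.5, 54.0 and 93.9 CPM in the high libraries and at 53.5, 79.7 and 112 CPM in the low libraries. The groups overlapped (log2 fold change -0.25, SE 0.33, edgeR adjusted p = 0.696). The phosphate carrier SLC20A2 has a pair of records on chromosome 17, on opposite strands and 64.9 kb apart, with log2 fold changes of 0.19 (ENSSSCG00000007027) and -0.15 (ENSSSCG00000026968). Reads may have been split between them, so neither value stands for the whole gene.

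The mitochondrial calcium exchanger listed as SLC24A6 varied more than any other of the 61 records. It was at 3.98, 18.0 and 24.6 CPM in high libraries 1 to 3 and at 5.86, 54.4 and 17.7 CPM in low libraries 1 to 3. High library 1 and low library 1 were both low, and low library 2 was the highest. The log2 fold change of -0.70 (SE 0.81, 95% interval -2.58 to 1.18) turned to 0.33 without low library 2. The OAS1 record, an interferon-induced gene of antiviral defence, lies wholly inside SLC24A6 on the same strand (chromosome 14, 41260566 to 41268627). OAS1 was at 0.355, 11.6 and 17.1 CPM in the high libraries and at 1.03, 39.4 and 7.73 CPM in the low libraries. The 6 libraries stood in the same order for both records. Whether reads of OAS1 were counted to SLC24A6 was not tested.

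Metal carriers leaned to lower values in the high group. Of 9 records, 7 had a negative fold change, with a median of -0.35 (-0.25 with the span trend removed), and 4 lower records reached an unadjusted p under 0.05 where 8.41% of all records did. None passed the adjusted threshold. The same 4 had groups that did not overlap, with the high libraries lower, as 13.7% of all records did. The iron exporter SLC40A1, listed without an SLC symbol and so not among the 9, had a positive value of 0.69 (SE 0.28), given further on.

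The zinc importers of the SLC39 (ZIP) family move zinc into the cytosol from outside or from organelles, and all 4 of their records had negative values. SLC39A7, which releases zinc from the endoplasmic reticulum, was at 13.4, 14.0 and 11.3 CPM in the high libraries against 18.6, 23.8 and 18.8 CPM in the low libraries (ENSSSCG00000001475, chromosome 7, 29756193 to 29760197). Each high library lay below each low library, and the log2 fold change was -0.64 (SE 0.15, 95% interval -0.98 to -0.30, edgeR adjusted p = 0.114). SLC39A13, a zinc carrier of the secretory pathway needed for connective tissue, had 11.8, 12.3 and 11.9 CPM in the high and 17.1, 16.5 and 13.0 CPM in the low libraries (-0.35, SE 0.14, edgeR adjusted p = 0.237). SLC39A1, which imports zinc at the cell surface, had 12.5, 14.2 and 15.3 CPM in the high and 15.6, 20.8 and 19.7 CPM in the low libraries (-0.40, SE 0.16, edgeR adjusted p = 0.241). For both the groups were separate by a narrow margin. SLC39A9 differed least, with -0.06 (SE 0.13).

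The zinc exporters SLC30A5 and SLC30A9, which load zinc into the secretory pathway and serve mitochondria, had small positive values of 0.19 (SE 0.14) and 0.12 (SE 0.13). SLC31A2, a copper carrier of endosomes and lysosomes, had the second smallest p of the 61 (ENSSSCG00000023714, chromosome 1, 284589320 to 284600766). Its levels were 13.8, 11.3 and 13.4 CPM in the high libraries against 23.4, 21.3 and 24.5 CPM in the low libraries. The groups were well apart and the log2 fold change was -0.83 (SE 0.17, 95% interval -1.21 to -0.44, edgeR adjusted p = 0.104), or 1.77-fold higher in the low group. In the authors' deposited table its false discovery rate is 0.0196, and it was not on their list of differing genes. The magnesium carriers SLC41A1 (-0.45, SE 0.25) and SLC41A3 (-0.23, SE 0.16) were lower with overlapping groups. SLC41A1 was -0.18 without low library 2 and SLC41A3 -0.12 without high library 3, and SLC41A3 shares 2540 bases with ZXDC on the opposite strand.

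**Figure D2:**
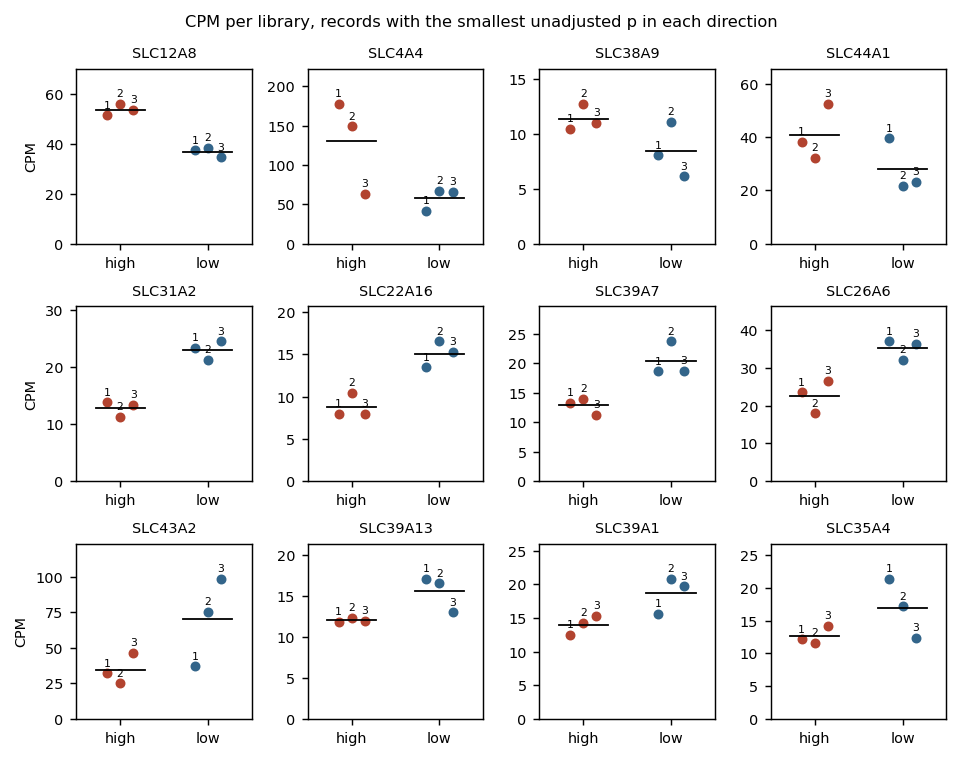
CPM of each library (y axis, from 0) for the 4 records with the smallest unadjusted p among those higher and the 8 among those lower in the high group. Numbers are library numbers, red points are high and blue points low libraries, and bars are group means. SLC12A8, SLC31A2, SLC22A16, SLC39A7 and SLC26A6 show groups apart, and SLC4A4 has high library 3 at 63.8 CPM among the low libraries.

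Carriers of vitamins, choline and organic ions had 6 records, 3 higher and 3 lower, with a median near 0. SLC22A16, a carnitine carrier, was at 7.96, 10.4 and 7.97 CPM in the high libraries against 13.4, 16.5 and 15.3 CPM in the low libraries (ENSSSCG00000004399, chromosome 1, 86038181 to 86064050). All high libraries stood below all low ones. High libraries 1 and 3 were below the table's level of 10 CPM, so the record was kept mostly through the low libraries. The log2 fold change was -0.77 (SE 0.16, 95% interval -1.14 to -0.39, edgeR adjusted p = 0.107), between -0.88 and -0.70 with any 1 library left out. The authors' deposited table gives it a false discovery rate of 0.0329.

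SLC44A1, a choline carrier, was at 38.3, 32.2 and 52.5 CPM in the high libraries and 39.5, 21.6 and 23.2 CPM in the low libraries. Low library 1 stood with the high libraries, and the log2 fold change of 0.56 (SE 0.28, edgeR adjusted p = 0.325) was 0.90 without it and 0.35 without high library 3. The related SLC44A2 differed by 0.06 (SE 0.15). SLC5A6, which carries biotin and pantothenate, had -0.28 (SE 0.22). SLC22A23 had -0.05 (SE 0.26). The vitamin C carrier SLC23A1 had 0.04 (SE 0.13) and shares 2059 bases with PAIP2 on the opposite strand.

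Amino acid carriers made up the largest class, with 15 records, 8 higher and 7 lower, a median of 0.10 and 1 record at an unadjusted p under 0.05, where 18.7% of all records did. The sign of this median was not stable, at -0.056 without high library 3, -0.051 without low library 3 and -0.052 with the span trend removed. That record was SLC43A2, which lets large neutral amino acids such as leucine and phenylalanine leave or enter the cell (ENSSSCG00000024108, chromosome 12, 49681830 to 49723909). It was at 32.0, 25.02 and 46.4 CPM in the high libraries and at 36.8, 75.4 and 98.5 CPM in the low libraries. Low library 1 lay among the high libraries, so the groups overlapped. The log2 fold change of -1.02 (SE 0.39, 95% interval -1.92 to -0.12, edgeR adjusted p = 0.229) was the lowest of the 61, and it was -0.61 without low library 3.

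SLC38A9, the lysosomal arginine sensor that reports to mTORC1, was at 10.4, 12.7 and 11.0 CPM in the high libraries and 8.04, 11.1 and 6.14 CPM in the low libraries (0.46, SE 0.20, edgeR adjusted p = 0.268). In deposited CPM, only low library 2 reached into the high range. The glutamine carrier SLC1A5 had 18.9, 29.4 and 23.1 CPM in the high and 14.0, 22.4 and 21.3 CPM in the low libraries (0.32, SE 0.22). The glutamate carrier SLC1A3 had 5.91, 18.2 and 15.9 CPM in the high and 8.33, 13.4 and 6.14 CPM in the low libraries (0.55, SE 0.40), with high library 1 the lowest of all 6. Neither SLC1 record had separate groups.

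SLC3A2 is the heavy chain that brings several SLC7 light chains to the cell surface. It was nearly constant in the high group at 97.2, 94.6 and 95.6 CPM, against 128, 111 and 97.2 CPM in the low group. The groups were separate by a very small margin, and the log2 fold change was -0.20 (SE 0.13, 95% interval -0.51 to 0.11). Its partner SLC7A8, a light chain for neutral amino acids, was at 99.8, 124 and 244 CPM in the high and 154, 186 and 104 CPM in the low libraries. High library 3 stood above the rest, and the log2 fold change of 0.11 turned to -0.38 without it. SLC7A7, which exchanges cationic and neutral amino acids, had -0.11 (SE 0.13) and shares 2364 bases with OXA1L on the opposite strand.

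SLC3A1 and SLC7A9, the chains of a cystine carrier known from kidney and intestine, each overlap another gene. SLC3A1 (0.26, SE 0.19) shares 2166 bases with PREPL on the opposite strand, and PREPL was at 86.8 to 118 CPM in the high and 71.6 to 88.1 CPM in the low libraries. SLC7A9 (0.10, SE 0.19) shares 58.9% of its span with ANKRD27 on the same strand. ANKRD27 was at 23.5 to 27.7 CPM in the high and 15.3 to 27.4 CPM in the low libraries. Without a stated strand setting, reads in the bases shared by SLC3A1 and PREPL cannot be told apart. For SLC7A9 and ANKRD27, on the same strand, that setting would not part them either. The remaining amino acid and peptide carriers, SLC7A2, SLC15A3, SLC15A4, SLC38A4, SLC38A5 and SLC38A6, ran between -0.34 and 0.40 with overlapping groups. In all, 8 of the 61 records overlap another record of the table, 4 on the same and 4 on the opposite strand.

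Sugar, lactate and fatty acid carriers listed under an SLC symbol had small estimates with overlapping groups. Their intervals reached to both sides, so a difference in either direction was not excluded. The glucose carrier SLC2A4, listed without an SLC symbol, had a log2 fold change of -0.40 (SE 0.16, edgeR adjusted p = 0.243), given further on. SLC2A3, a high-affinity glucose uniporter, was at 41.4, 40.2 and 36.4 CPM in the high and 34.8, 38.4 and 53.2 CPM in the low libraries, a log2 fold change of -0.09 (95% interval -0.58 to 0.39). SLC37A4, which brings glucose phosphate into the endoplasmic reticulum, had 154, 118 and 128 CPM in the high and 169, 114 and 102 CPM in the low libraries, 0.08 (95% interval -0.43 to 0.59). The high libraries of both lay inside the range of the low ones.

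SLC16A3, the proton-coupled carrier by which fast fibres export lactate, was at 24.3, 27.1 and 24.8 CPM in the high and at 46.9, 29.0 and 16.3 CPM in the low libraries. The high libraries were alike while the low libraries spread 2.88-fold, and the log2 fold change was -0.24 (95% interval -0.98 to 0.49). It was 0.22 without low library 1. SLC16A5 (0.09, SE 0.20) and SLC16A9 (0.05, SE 0.29) completed the family. SLC27A1, a fatty acid transport protein with acyl-CoA synthetase activity, had 16.1, 10.7 and 14.9 CPM in the high and 21.7, 14.6 and 9.95 CPM in the low libraries (-0.12, 95% interval -0.79 to 0.56). SLC33A1, which carries acetyl-CoA into the endoplasmic reticulum, had 0.13 (SE 0.17).

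Carriers of nucleosides and nucleotide sugars supply salvage and glycosylation. Of 9 records 3 were higher and 6 lower (median -0.08, and 0.031 without high library 2). An unadjusted p under 0.05 was reached by 0 of them, where 18.7% of all records did. SLC35A4 had -0.40 (SE 0.20, edgeR adjusted p = 0.326), with low library 3 inside the high range. SLC35A1, which carries CMP-sialic acid into the Golgi apparatus, was at 36.9, 35.2 and 24.0 CPM in the high and 45.5, 37.3 and 42.0 CPM in the low libraries (-0.36, SE 0.20). Its groups were separate in deposited CPM only, as given further on. SLC35F5 had 0.42 (SE 0.24). The equilibrative nucleoside carrier SLC29A1 had -0.10 (SE 0.16). SLC35B1, known to carry ATP into the endoplasmic reticulum, had -0.17 (SE 0.12) with groups separate by a small margin, also in deposited CPM only. SLC29A2, SLC35A5, SLC35B4 and SLC35E1 lay between -0.08 and 0.08. The adaptor SLC4A1AP and the scaffolds SLC9A3R1 and SLC9A3R2 had 0.23, -0.19 and -0.22, all with overlapping groups in deposited CPM.

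Groups did not overlap in 10 of the 61 records (16.4%), against 24.2% of all records. The high libraries were above in 1, where 10.4% of all records were, and below in 9, where 13.7% were. This split depends on the scale: on CPM with TMM scaling factors (0.939 to 1.07 per library) the 10 separate records were 3 above and 7 below. On that scale the groups of SLC35A1 and SLC35B1 overlapped, and those of SLC38A9 and SLC4A1AP were separate. The spread inside the groups was wide. The highest low library exceeded the lowest more than 2-fold in 13 records (21.3%, against 10.6% of all records), and the same held in the high group for 7 records (11.5%, against 4.31%). Low library 3 held the lowest value of the 6 in 20 of the 61 records (32.8%, against 33.5% of all records), and low library 2 the highest in 17 (27.9%, against 31.5%).

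**Figure D3:**
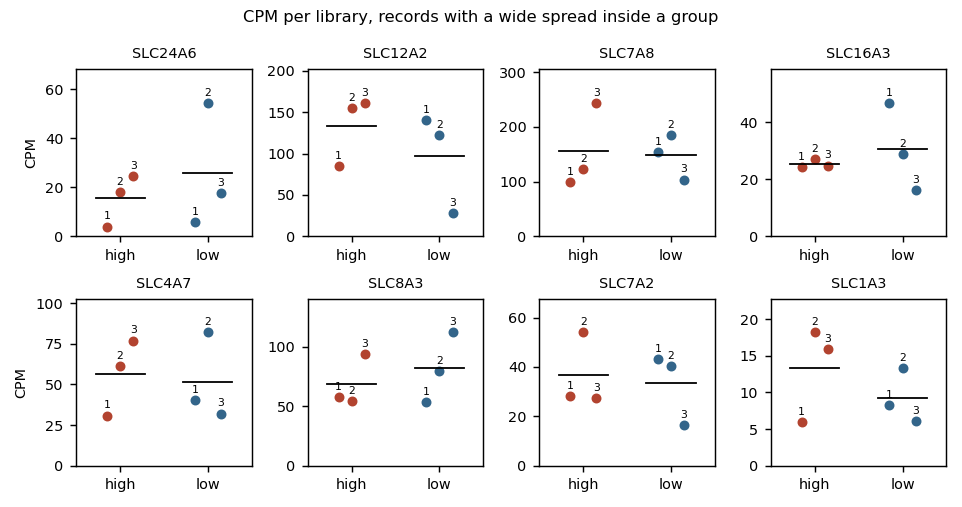
CPM of each library (y axis, from 0) for 8 records whose level differed more than 2-fold inside a group, chosen after their values were seen. Numbers are library numbers, red points are high and blue points low libraries, and bars are group means. Low library 3 lies at 27.6 CPM for SLC12A2, and SLC24A6 ranges over 3.98 to 54.4 CPM.

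The direction of the differences went with the genomic span of the record, introns included, as it did in the whole table. Across the 61 records Spearman's rho between span and log2 fold change was 0.522, and across all 7661 records it was 0.407. Records share the same 6 libraries and are not independent, so no p is given. All records were split by span into 5 bins of nearly equal number. In the bin of the shortest records 1 of 6 solute carriers had a positive value, and their median log2 fold change was -0.32, against -0.18 for all records of that bin. In the bin of the longest, 10 of 13 had a positive value, and their median was 0.46, against 0.18 for all records of that bin. SLC4A4, at 210 kb the longest of the 61, had 0.88 (edgeR adjusted p = 0.327) once the trend with span was removed in each library, and SLC12A8 had 0.33 (edgeR adjusted p = 0.232). The short zinc carriers SLC39A7, SLC39A1 and SLC39A13 then had -0.50, -0.25 and -0.25. SLC31A2 (-0.75), SLC22A16 (-0.79) and SLC43A2 (-1.14) kept values of about the same size. The part of span in the result was not tested further.

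**Figure D4:**
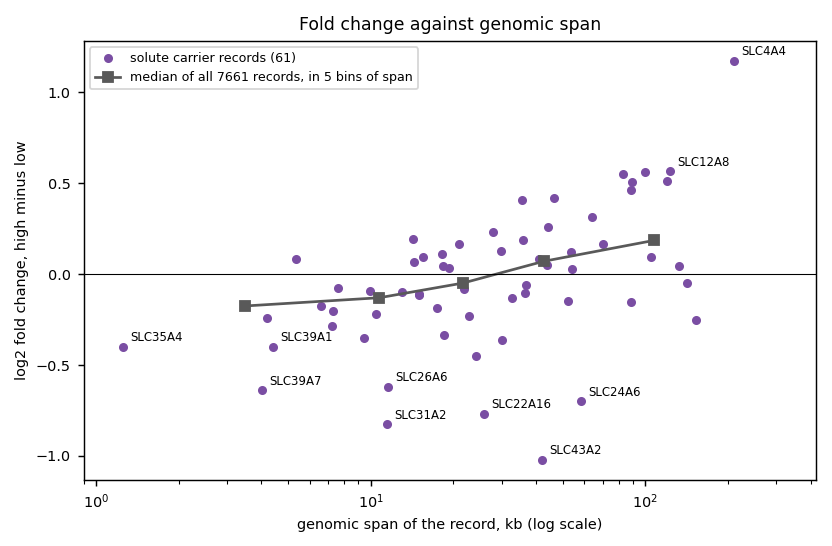
Genomic span of each of the 61 records in kb (x axis, log scale) against its log2 fold change, high minus low (y axis). Squares are medians of all 7661 records in 5 bins of span, running between -0.18 and 0.18, and SLC4A4, the longest record, has the highest value.

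Carriers that the table lists without an SLC symbol were looked up in the Ensembl names. There were 11, of which 6 were higher and 5 lower, with log2 fold changes of -0.66 to 1.03, 6 at an unadjusted p under 0.05, where 18.7% of all records did, and 0 past the adjusted threshold in edgeR's quasi-likelihood test. DESeq2 called 3 of the 11, where it called 6.76% of all records. The exact test called 2 (SLC38A2 and SLC19A2), where it called 4.12%, and limma-voom 0, where it called 0.104%. The thiamine carrier SLC19A2, chosen after its values were seen, had the largest difference, at 154, 188 and 101 CPM in the high libraries and 58.3, 108 and 55.9 CPM in the low libraries (1.03, SE 0.29, edgeR adjusted p = 0.151). Low library 2 stood above high library 3, and the gene is on the authors' deposited list. SLC2A4, the insulin-responsive glucose carrier, had 93.3, 84.6 and 106 CPM in the high and 132, 150.5 and 100.2 CPM in the low libraries (-0.40, SE 0.16, edgeR adjusted p = 0.243), with low library 3 inside the high range. SLC38A2, the sodium-coupled neutral amino acid carrier induced by amino acid shortage, was at 225, 237 and 229 CPM in the high libraries and 142, 175 and 109 CPM in the low libraries (0.73, SE 0.15, edgeR adjusted p = 0.107). Every high library stood above every low one. A neighbouring record on the opposite strand, which RefSeq names SLC38A2, had 0.72 (SE 0.15). It was at 206, 217 and 212 CPM in the high and 131, 162 and 101 CPM in the low libraries, just below the first record in each. Whether the records share reads was not tested, so the values are not separate evidence. SLC6A8, the creatine carrier of muscle, was at 157, 135 and 114 CPM in the high and 185, 195 and 265 CPM in the low libraries, also separate (-0.66, SE 0.22, edgeR adjusted p = 0.193, and -0.41 without low library 3). The iron exporter SLC40A1 had 0.69 (SE 0.28, edgeR adjusted p = 0.251, and 0.43 without high library 3) and the potassium-chloride cotransporter SLC12A4 -0.02 (SE 0.18).

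A list of carrier partners and of the ion pumps that drive carriers had 19 matched records, 10 higher and 9 lower, with a median of 0.08, 3 at an unadjusted p under 0.05 (15.8%, against 18.7% of all records) and 0 past the threshold in edgeR's quasi-likelihood test. ARRDC4, an arrestin-related adaptor that takes glucose carriers off the cell surface, was at 11.4, 16.6 and 17.2 CPM in the high and 6.55, 7.72 and 6.97 CPM in the low libraries (1.10, SE 0.18, edgeR adjusted p = 0.0761). ATP1B4, a muscle protein of the sodium pump beta family, had 0.90 (SE 0.26, edgeR adjusted p = 0.157). BSG, the chaperone of lactate carriers such as SLC16A3, had 22.1, 20.2 and 20.5 CPM in the high and 32.7, 29.1 and 24.6 CPM in the low libraries (-0.44, SE 0.14, edgeR adjusted p = 0.181). These 3 were chosen for the smallest p, and groups did not overlap in 4 of the 19 records, against 24.2% of all records. Of the 19 records, 2 were kept in the table through the libraries of a single group, so the filter fixed their separation. ARRDC4, kept through the high libraries alone, is among them.

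A second list of transporters with other names (the MFSD, SLCO and ABC families and others) had 16 matched records, 7 higher and 9 lower, with a median of -0.09. Of these, 4 reached an unadjusted p under 0.05, where 18.7% of all records did, and 0 passed the threshold in edgeR's quasi-likelihood test. The export pump ABCC1 was at 51.7, 46.2 and 58.4 CPM in the high and 32.4, 32.9 and 28.7 CPM in the low libraries (0.76, SE 0.14, edgeR adjusted p = 0.0910). ABCC9, the regulatory subunit of a potassium channel of muscle and vessels, had 0.83 (SE 0.24), and the cholesterol exporter ABCA1 0.97 (SE 0.28). DESeq2 and the exact test each called 5 of these 19 and 16 records together, where DESeq2 called 6.76% and the exact test 4.12% of all records, and limma-voom called 0.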

How the data were processed

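Per the labels' protocols, RNA was extracted with TRIzol and made into Illumina TruSeq libraries. The submitters' processing notes name TopHat2 2.0.4, BWA 0.6.2, Trimmomatic 0.22 and FastQC 0.10.1 without roles. Neither the read counter and its strand setting nor the genome build is known from the sources used here. The authors deposited raw read counts and CPM for 7661 records, each above 10 CPM in at least 3 libraries, so weaker carriers were not analysed here. Dividing a count by its CPM recovered each library total. The authors' deposited log2 fold changes (low over high) were turned round, and the authors' deposited p-values and false discovery rates are quoted as theirs. They nearly equal those of edgeR's exact test as run here, as for SLC38A2 with a p of 0.000871 in both.

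Counts were tested in edgeR 4.0.16 (R 4.3.3) with TMM factors, filterByExpr, which kept all records, then the quasi-likelihood F-test with no covariate. The SE equals the size of the change over the root of F. The script was tested on simulated data. Levels are deposited CPM per library, n = 3 a group. DESeq2 1.42.0, limma 3.58.1 and the settings listed in the closing section were alternatives. The design gives 3 pigs a group, and intervals rest on the spread between these few samples only.

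Members, classes and lists were chosen with earlier results of these data known. Named were the 10 records per direction with the smallest p, those on the authors' list, records sharing a symbol, non-carriers and 44 genes with known roles. Of these 44, 17 were members, 4 were found under Ensembl or RefSeq names and 23 were not analysed here. From the partner and transporter lists the 3 smallest p were named. The values of 1 record are not reported here, though counts and medians include it. Other carriers were named after their values were seen. A planned ranking by level per coding length was not run, since no lengths were at hand, and levels of different genes were not compared.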

Additional observations from a re-analysis of the deposited data

How the results depend on the processing

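The older quasi-likelihood method and the TMM scale for overlap were chosen after seeing the data. Calls over all records, 11, became 6 with a mean CPM of at least 20, 518 in DESeq2, 316 in the exact test and 82 at a threshold of 0.1. Leaving out one library gave 1 to 30 calls, with 1 when low library 2 and 30 when low library 1 was absent. The 0 solute carrier calls became 5 in DESeq2, 3 in the exact test and 1 at a threshold of 0.1, and stayed 0 whichever library was left out. The 0 calls of the partner and transporter lists became 5 in DESeq2, 5 in the exact test and 2 at a threshold of 0.1, and also stayed 0 without any one library. Libraries with the same replicate number shared only the number (correlations of their deviations from the group means 0.118, 0.0312 and -0.0815), and the fit with the replicate block gave 2 calls over all records and 0 among the solute carriers and both lists. The 2 solute carriers higher at an unadjusted p under 0.05 were 5 without low library 1, 4 without low library 2 or with the replicate block, and 1 with the span trend removed. The 7 lower were 4 without high library 2 or low library 2, and 2 with a mean CPM of at least 20. The solute carrier median of -0.06 was 0.044 with a mean CPM of at least 20 and ran between -0.10 and 0.045 with one library left out. The causes were not tested. The sign of the log2 fold change held in every alternative run for 33 of the 61 records and differed in at least 1 for 28, none of which passed the threshold in any alternative. With the span trend removed the values of opposite sign were -0.020 for SLC30A9, -0.12 for SLC7A9, 0.0081 for SLC2A3, -0.013 for SLC35A5, -0.0069 for SLC4A7, -0.20 for SLC26A3, 0.039 for SLC29A2, -0.057 for SLC16A9 and 0.10 for SLC12A4. SLC12A4 was also 0.0022 in limma-voom. Records whose sign differed with one library left out had values of -1.21 to 0.33 for SLC24A6, -0.52 to 0.22 for SLC16A3, -0.55 to 0.12 for SLC8A3, -0.0073 to 0.23 for SLC33A1, -0.041 to 0.45 for the shorter SLC20A2 record, -0.32 to 0.013 for SLC38A6 and -0.27 to 0.057 for SLC15A4. Ranges were -0.21 to 0.031 for SLC29A1, -0.34 to 0.17 for the longer SLC20A2 record, -0.014 to 0.28 for SLC7A9, -0.053 to 0.35 for SLC16A5, -0.21 to 0.18 for SLC2A3, -0.064 to 0.25 for SLC35A5 and -0.19 to 0.41 for SLC7A2. Further ranges were -0.075 to 0.16 for SLC44A2, -0.14 to 0.60 for SLC4A7, -0.31 to 0.23 for SLC27A1, -0.056 to 0.34 for SLC37A4, -0.011 to 0.15 for SLC23A1, -0.38 to 0.34 for SLC7A8 and -0.58 to 0.087 for SLC38A5. The last ranges were -0.33 to 0.18 for SLC29A2, -0.24 to 0.21 for SLC22A23, -0.20 to 0.24 for SLC16A9, -0.12 to 0.24 for SLC35B4 and -0.14 to 0.15 for SLC12A4. A further 23 solute carrier records and 3 others kept their sign but moved by over 1.5 times with one library left out. Apart from SLC43A2 and SLC44A1, given above, these had 0.58 to 1.04 for ATP1B4, 0.087 to 0.91 for SLC12A2, -0.47 to -0.19 for SLC15A3, 0.29 to 0.90 for SLC1A3, 0.14 to 0.46 for SLC1A5, 0.14 to 0.29 for SLC30A5, -0.50 to -0.19 for SLC35A1 and -0.54 to -0.18 for SLC35A4. They also included -0.13 to -0.0011 for SLC35E1, 0.22 to 0.72 for SLC35F5, 0.21 to 0.83 for SLC38A4, -0.13 to -0.0028 for SLC39A9, 0.15 to 0.41 for SLC3A1, -0.25 to -0.086 for SLC3A2, 0.43 to 0.86 for SLC40A1 and -0.63 to -0.18 for SLC41A1. They also included -0.39 to -0.12 for SLC41A3, 0.24 to 0.94 for SLC4A10, 0.14 to 0.32 for SLC4A1AP, -0.46 to -0.17 for SLC5A6, -0.80 to -0.41 for SLC6A8, -0.17 to -0.0058 for SLC7A7, -0.44 to -0.020 for SLC9A3R1 and -0.31 to -0.11 for SLC9A3R2. The class median of the inorganic ion carriers was -0.059 and that of the metal carriers -0.25 with the span trend removed.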
